A study of Mus musculus with 35 samples.

Results

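The 16 striatal RNA-seq libraries described here compared 8 mice heterozygous for a long-repeat HttQ111 allele (HttQ111/+) with 8 Htt+/+ controls from the same animal-number series. They were chosen from the 35 libraries of the study by their animal number, which begins with V or v, and no measured value entered that choice. The HttQ111/+ mice carried 131 to 144 CAG repeats in the knock-in allele and the Htt+/+ mice carried 7. Of the HttQ111/+ libraries, 3 were Hdac2+/+ and 5 were Hdac2-/-, and of the Htt+/+ libraries 5 were Hdac2+/+ and 3 were Hdac2-/-. Hdac2-/- means that both Hdac2 alleles were floxed and that the D9-Cre transgene was present; it expresses Cre from Ppp1r1b (DARPP-32) sequences in medium-spiny neurons from 5 to 6 weeks of age, so other striatal cells kept Hdac2. The Hdac2+/+ mice of this series also carried floxed alleles but were Cre-negative, according to the sample records of the study, and the Cre transgene and the deletion therefore cannot be told apart. The floxed line came from a mixed background later crossed to C57BL/6J. The mice were 22.29 to 22.57 weeks old, with 7 males and 1 female among the HttQ111/+ and 6 males and 2 females among the Htt+/+ libraries. Because the Hdac2 genotypes were unequally divided between the Htt genotypes, every fold change below was adjusted for Hdac2 genotype, whereas the values given per library were not.

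Huntington's disease is caused by an expanded CAG repeat in the HTT gene, which lengthens a glutamine tract in huntingtin, and the medium-spiny neurons (MSNs) of the striatum are the cells most affected. HttQ111 mice carry such an expansion in the endogenous mouse gene. MSNs use GABA as their transmitter and fall into a direct-pathway class, marked by the D1 dopamine receptor and substance P, and an indirect-pathway class, marked by the D2 dopamine receptor, the adenosine receptor Adora2a and enkephalin. In both classes dopamine and adenosine receptors converge on adenylyl cyclase and cyclic AMP, which activates protein kinase A and its substrate DARPP-32. Loss of transcripts of this kind in striatum is a familiar feature of Huntington's disease models, and the comparison addressed here is how the transcriptome of these HttQ111/+ striata differed from that of their own controls.

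Sequencing depth was even. The libraries held 53980499 to 64454271 counts on genes, with a median of 57175988, and the lowest correlation between any pair of libraries on the log2 CPM scale was 0.98. Levels are given as CPM, the counts of a gene relative to the TMM-scaled total of its library. The TMM factors ran from 1.00 to 1.04 in HttQ111/+ and from 0.957 to 1.01 in Htt+/+ libraries, and mitochondrial transcripts took 7.74 to 9.57% and 6.86 to 8.75% of counts. The summed level of 9 MSN markers did not overlap between the genotypes, at 5904 to 7103 CPM (median 6532) in HttQ111/+ and 7552 to 8677 CPM (median 8194) in Htt+/+, and 8 of the 9 markers passed the test, all lower in HttQ111/+. Fewer MSNs and less RNA per MSN cannot be told apart in whole striatum. Of the other marker lists only the astrocyte list had a member that passed in the main edgeR fit (S100b, 0.22 higher on the log2 scale). Most astrocyte markers lay the other way: 7 of 10 were below 0, with a median of -0.09, among them the glutamate transporters Slc1a2 (-0.40, adjusted p = 0.083) and Slc1a3 (-0.15, adjusted p = 0.0501), and DESeq2 and limma-voom each called 2 lower. Their sums overlapped, at 2329 to 2813 against 2558 to 2779 CPM. All 11 microglial markers were below 0 (median -0.13), 6 of them at an unadjusted p under 0.05 and 0 past the adjusted threshold in the main edgeR fit (1 in DESeq2), as were 7 of 8 endothelial markers (median -0.13, 1 at an unadjusted p under 0.05 and 0 past the adjusted threshold in the main edgeR fit or DESeq2). An edgeR fit with surrogate variables called 3 astrocyte markers and 1 endothelial marker lower. It called 1 marker each of astrocytes, choroid plexus and cortical neurons higher. The part of these lower glial and vascular markers in the results was not tested. Sums for oligodendrocytes (6164 to 7748 against 6629 to 8277 CPM), microglia (625 to 743 against 611 to 795 CPM) and choroid plexus (24.6 to 105 against 20.8 to 52.2 CPM) overlapped as well.

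The targeted genes were looked at first. Htt (chromosome 5, 34761740 to 34912534, GRCm38), which encodes huntingtin, was at 206, 199, 198, 216 and 216 CPM in the Htt+/+ Hdac2+/+ libraries and at 194, 190 and 187 CPM in the HttQ111/+ Hdac2+/+ libraries. It was at 191, 197 and 201 CPM in the Htt+/+ Hdac2-/- libraries and at 122, 164, 164, 152 and 162 CPM in the HttQ111/+ Hdac2-/- libraries. The genotypes thus overlapped over all 16 libraries but not within either Hdac2 genotype, and both Htt alleles were counted together. By the study's description the knock-in allele holds a stretch of human HTT sequence, whereas reads were aligned to the mouse genome. Reads of that stretch may therefore be undercounted in HttQ111/+ libraries only, and the part of this in the Htt values was not tested. The fall was small, with a log2 fold change of -0.24 ± 0.06 (SE, edgeR quasi-likelihood test, adjusted p = 0.021), and it no longer passed when RNA extraction date was added to the model (-0.20, adjusted p = 0.059) or when Htt+/+ Hdac2-/- replicate 4 was left out (-0.22, adjusted p = 0.064). The fall in Htt also did not pass in males only. Hdac2 transcript, counted over the whole gene and in all striatal cells, was 96.6 to 109 CPM in HttQ111/+ and 96.5 to 108 CPM in Htt+/+ libraries and did not pass (0.04 ± 0.03, adjusted p = 0.54). Between Hdac2 genotypes it was lower by 0.11 on the log2 scale in Hdac2-/- (adjusted p = 0.020), and Hdac1, its close paralog, was 0.48 higher (adjusted p = 6.2e-05). For Hdac2 genotype, 2473 genes passed (14.4%), 1180 higher (6.87%) and 1293 lower (7.52%) in Hdac2-/-.

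Of 17187 genes tested, 682 (3.97%) passed an adjusted p of 0.05. More of them fell than rose, with 465 lower in HttQ111/+ (2.71%) and 217 higher (1.26%). At an unadjusted p under 0.05 the directions were nearer to even, with 1611 lower and 1454 higher. That division depended on the scaling: with library totals alone, which raised the median log2 fold change of all genes from 0.01 to 0.04, 917 genes passed and 63.4% of them rose, against 31.8% with TMM. The changes were modest, with a median size of 0.29 on the log2 scale, and 131 of the 682 exceeded 0.5 and 35 exceeded 1. The genes that fell were strongly expressed, 48.6% of them above 100 CPM, compared with 13.4% of the genes that rose and 13.6% of all genes tested. For 122 genes (0.71%) the 8 HttQ111/+ and 8 Htt+/+ libraries did not overlap at all, 84 lower and 38 higher, and 107 of these were among the 682. Of the 682, 35.6% lay over another annotated gene, as did 38.0% of all genes tested, and reads in such a stretch can belong to either. RNA extraction date was nested within Hdac2 genotype. Within the libraries extracted on 25 May, 26 May and 27 May, 674, 682 and 682 of the 682 genes differed in the same direction as in the whole comparison, against 12266, 13577 and 13013 of all 17187 genes; these are the same libraries that gave the calls, so the counts are a description. The 2 libraries extracted on 3 June were both HttQ111/+ and gave no within-date value.

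**Figure D1:**
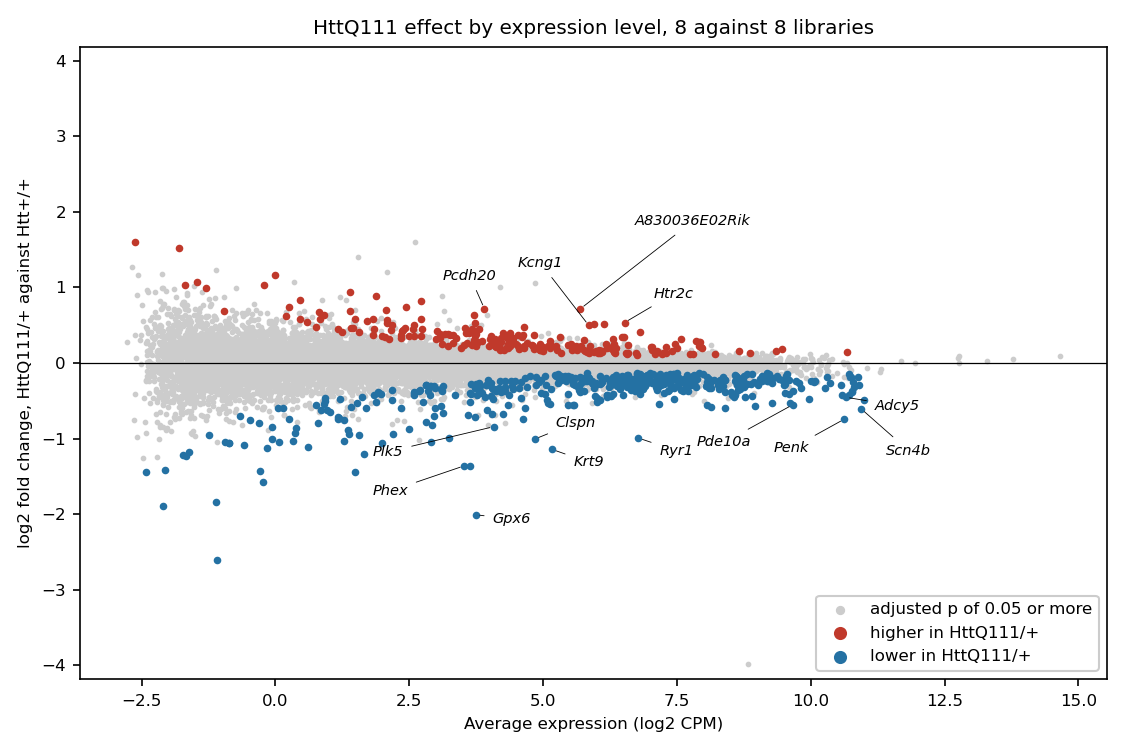
Each point is 1 of the 17187 genes tested, with its average level (log2 CPM) on the horizontal axis and its log2 fold change between HttQ111/+ and Htt+/+ libraries (8 each, adjusted for Hdac2 genotype) on the vertical axis. Genes that fell (465, blue) reach further into the highly expressed range than genes that rose (217, red); the grey point at -3.98 is Xist, which follows the sex of the mice.

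Of 9 indirect-pathway genes tested, 5 fell (Upb1, Penk, Adora2a, Gpr6 and Drd2), none rose and the median log2 fold change was -0.38, beside 3.97% passing and a median of 0.01 over all genes. Penk (chromosome 4, 4133531 to 4138819, overlapping A830012C17Rik), which encodes the precursor of enkephalin, was at 1815 to 2112 CPM (median 1989) in the 5 Htt+/+ Hdac2+/+ libraries and at 1016, 1137 and 1042 CPM in HttQ111/+ Hdac2+/+ libraries. In Hdac2-/- striata it was at 1889, 2027 and 1831 CPM in Htt+/+ and at 1310, 1327, 1268, 1319 and 1164 CPM in HttQ111/+ libraries. No HttQ111/+ library reached the lowest control, and the log2 fold change was -0.74 ± 0.06 (adjusted p = 1.76e-07), the second lowest adjusted p of all genes. Gpr6, a constitutively active receptor of indirect-pathway neurons that raises cyclic AMP, was at 68.0 to 88.1 CPM (median 76.9) against 91.9 to 115 CPM (median 99.9), also without overlap (-0.42 ± 0.06, adjusted p = 0.000284). Drd2, the D2 dopamine receptor (chromosome 9, 49340662 to 49407214), was at 155 to 204 CPM (median 166) against 200 to 251 CPM (median 224), where the highest HttQ111/+ library just exceeded the lowest control (-0.38 ± 0.06, adjusted p = 0.0012). Adora2a, the adenosine receptor whose activity opposes D2 signalling, was at 253 to 380 CPM (median 326) against 369 to 483 CPM (median 449), with a similar overlap (-0.45 ± 0.09, adjusted p = 0.0070). Upb1, an enzyme of pyrimidine breakdown whose interval overlaps Gucd1, was much lower in level, at 2.93 to 9.02 against 6.25 to 11.1 CPM (-0.78 ± 0.13, adjusted p = 0.0016).

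**Figure D2:**
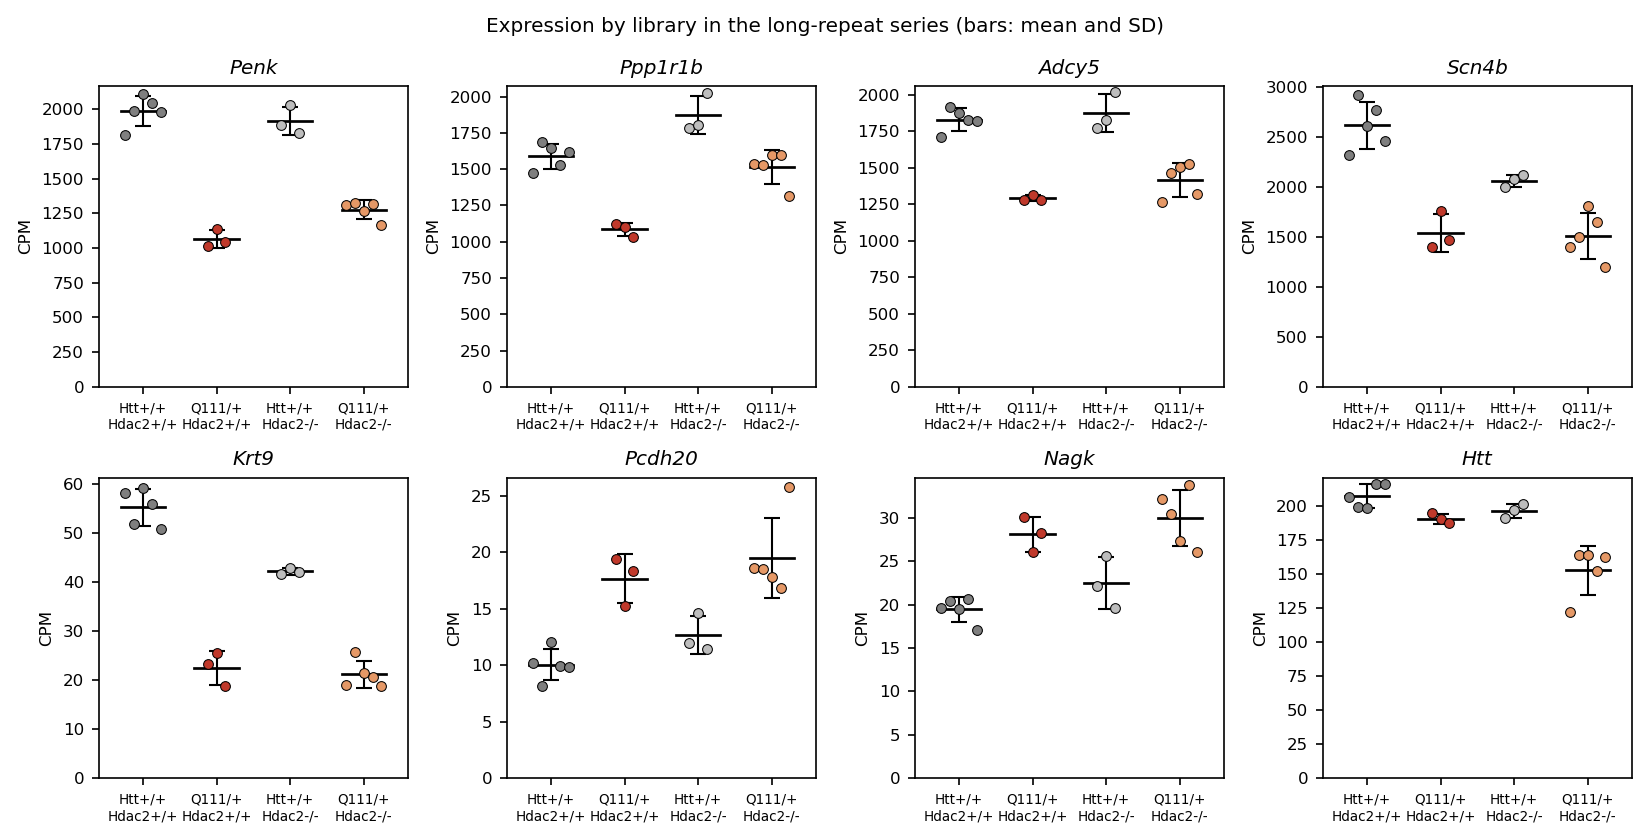
CPM in each of the 16 libraries (points) with the mean and SD (bars) for 8 genes, in 4 groups set by Htt and Hdac2 genotype. Penk, Adcy5, Scn4b and Krt9 were lower in every HttQ111/+ library than in every Htt+/+ library and Pcdh20 and Nagk were higher, whereas Ppp1r1b and Htt separated only within an Hdac2 genotype.

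Direct-pathway genes moved both ways. Of 12 tested, 2 fell and 2 rose (33.3%, beside 3.97% of all genes). The median was -0.02, which turned positive with library totals alone. Drd1a, the D1 dopamine receptor, was at 312 to 381 CPM (median 360) in HttQ111/+ and 402 to 487 CPM (median 452) in Htt+/+ libraries, with no overlap (-0.31 ± 0.05, adjusted p = 0.0012). Chrm4, the muscarinic receptor that opposes D1 signalling in the same neurons, was at 45.0 to 67.0 against 59.2 to 77.2 CPM, so the ranges overlapped (-0.33 ± 0.07, adjusted p = 0.0071). The transcription factor Isl1 (0.21 ± 0.06, adjusted p = 0.037) and the gene Eya1 (0.40 ± 0.10, adjusted p = 0.028) rose. In males only 1 gene of the list fell and 0 rose, so neither rise passed there. Tac1, the substance P precursor, was at 319 to 449 CPM in HttQ111/+ and 300 to 415 CPM in Htt+/+ libraries and did not pass (0.08 ± 0.04, adjusted p = 0.32), and neither did the dynorphin gene Pdyn (-0.13, adjusted p = 0.72).

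In the signalling cascade between these receptors and protein kinase A, 9 of 33 genes fell and 1 rose (30.3%, beside 3.97% of all genes). Adcy5, the principal striatal adenylyl cyclase, was at 1264 to 1524 CPM in HttQ111/+ and 1708 to 2021 CPM in Htt+/+ libraries, with a clear gap (-0.45 ± 0.05, adjusted p = 2.29e-05). Pde10a and Pde1b, phosphodiesterases that break down cyclic nucleotides in MSNs, fell by 0.55 ± 0.08 and 0.42 ± 0.05 on the log2 scale, each with no overlap between the genotypes, and Pde7b fell by 0.29. Ppp1r1b, which encodes DARPP-32, was at 1034 to 1597 CPM (median 1422) against 1470 to 2023 CPM (median 1664); these ranges overlapped, and the fold change adjusted for Hdac2 genotype was -0.43 ± 0.05 (adjusted p = 0.000192). Ppp1r1b was itself higher in Hdac2-/- than in Hdac2+/+ striata by 0.36 on the log2 scale, and without the Hdac2 term its HttQ111 effect no longer passed (-0.32, adjusted p = 0.075). The D9-Cre transgene carries Ppp1r1b sequence, and its part in these counts was not tested. The related cyclic AMP-regulated phosphoproteins Arpp21 (-0.49 ± 0.06) and Arpp19 (-0.53 ± 0.06) fell with no overlap. Gng7, a G-protein gamma subunit coupled to Adcy5 (-0.19), and Cdk5r1, the activator of the kinase Cdk5 (-0.24), fell less. The catalytic and regulatory subunits of protein kinase A (Prkaca 0.06, Prkacb 0.01, Prkar1a 0.02, Prkar1b 0.13, Prkar2a 0.08 and Prkar2b -0.10) did not pass, and neither did Creb1 (0.07). The gene that rose was 1 of 2 annotated entries for the phosphodiesterase Pde4d (0.35 ± 0.06); the other was at 0.13 and did not pass.

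Regulators of G-protein signalling and of the small G proteins Ras and Rap were lower as well, with 9 of 23 genes falling, none rising and a median of -0.18. That was 39.1% of the list, beside 3.97% of all genes. Rgs9, which speeds the shut-off of G proteins coupled to dopamine receptors, was at 587 to 750 CPM (median 660) against 797 to 999 CPM (median 869) and did not overlap (-0.41 ± 0.05, adjusted p = 0.000192). Its obligate partner Gnb5, a G-protein beta subunit, fell by 0.36 ± 0.07. Rgs4 (-0.48 ± 0.08) and Rgs14 (-0.46 ± 0.07), and Rap1gap (-0.35 ± 0.07), which inactivates Rap, fell to similar degrees. Rasgrp2 (-0.31), an exchange factor for Rap, and Rasd2 (-0.29), a striatal Ras relative also called Rhes, fell, and Rgs7bp (-0.23) and Rgs7 (-0.14) fell least. Rgs14 also differed between Hdac2 genotypes, being lower in Hdac2-/- by 0.57 on the log2 scale (adjusted p = 4.73e-05).

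Ion channels and calcium-handling proteins included 15 of 36 genes that fell and 1 that rose (44.4%, beside 3.97% of all genes), with a median of -0.17. Scn4b, a sodium-channel beta subunit abundant in MSNs, was at 1197 to 1812 CPM (median 1486) in HttQ111/+ and 2000 to 2928 CPM (median 2395) in Htt+/+ libraries, with no overlap (-0.61 ± 0.09, adjusted p = 0.000729). Ryr1, a calcium-release channel of the endoplasmic reticulum, showed the largest change of the list, at 58.6 to 109 CPM (median 65.1) against 130 to 172 CPM (median 143), again without overlap (-0.99 ± 0.14, adjusted p = 0.0012). Of the 13 potassium-channel and channel-subunit genes in the list, picked out after their values were seen, Kcnh4 (-0.56 ± 0.08), Kcnh3 (-0.34 ± 0.06), Kcnab1 (-0.36 ± 0.06), Kcnj4 (-0.31 ± 0.05) and Kcnq5 (-0.20) fell, and 8, among them Kcnd2 (-0.03) and Kcnj3 (0.20), did not pass. Calcium-signalling genes that fell were the IP3 receptor Itpr1 (-0.29), the calcium pumps Atp2b1 (-0.32) and Atp2b2 (-0.22), the calcium sensor Hpca (-0.37), the kinases Camkk2 (-0.33), Camk4 (-0.27) and Itpka (-0.27), and the channel subunit Cacna2d3 (-0.23). The gene that rose was Trpv2, a cation channel, at 0.27. The sodium-channel alpha subunits Scn1a (0.00), Scn2a1 (-0.04) and Scn8a (-0.06) did not pass.

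Among 30 other transmitter and peptide receptors, 8 fell and 3 rose (36.7%, beside 3.97% of all genes), with a median of -0.13. In males only 1 of these receptors fell and 2 rose. Among those that fell were Cnr1, the cannabinoid receptor (-0.57 ± 0.14), Chrna4 (-0.51 ± 0.12), a nicotinic receptor subunit, Hrh3 (-0.26), a histamine receptor, Adra2c (-0.26), an adrenergic receptor, the metabotropic glutamate receptors Grm4 (-0.19) and Grm3 (-0.17), and Gpr83 (-0.21). The serotonin receptor Htr2c rose, at 72.4 to 146 CPM (median 99.0) in HttQ111/+ and 59.3 to 103 CPM (median 79.5) in Htt+/+ libraries; the unadjusted ranges overlapped widely and the adjusted fold change was 0.54 ± 0.07 (adjusted p = 0.000572). Gpr149 (0.63 ± 0.10) and the neuropeptide Y receptor Npy1r (0.36 ± 0.07) also rose. Of 40 postsynaptic genes, 7 fell and 3 rose (25%, beside the same 3.97%), with a median of -0.08. The scaffolds Dlgap3 (-0.41 ± 0.06), Shank3 (-0.42 ± 0.07) and Dlg4 (-0.22 ± 0.04), which encodes PSD-95, fell with no overlap between the genotypes, and Homer1 fell by 0.59 ± 0.13 with overlap. The kainate receptor subunits Grik2 (-0.29) and Grik5 (-0.21) and the GABA-A subunit Gabrd (-0.20) fell, whereas the GABA-A subunit Gabra2 (0.51) and the synaptic adhesion protein Lrrtm4 (0.31) rose. None of the AMPA receptor genes Gria1 to Gria4 passed, with log2 fold changes between -0.07 and 0.05.

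Of 31 transcription factors of striatal neurons, 5 fell and 2 rose (22.6%, beside 3.97% of all genes). In males only 2 of them fell and 0 rose. Bcl11b (CTIP2), needed for MSN differentiation, fell by 0.22 ± 0.04, Meis2 by 0.18 ± 0.03, Foxp1 by 0.15 ± 0.04, Klf16 by 0.22 ± 0.05, and the retinoid receptor Rxrg by 0.36 ± 0.09. Isl1 rose, as given above, and so did Bcl11a (0.16 ± 0.04). Immediate-early genes, which neurons induce within minutes of activity, had a median of -0.25 and 27 of 28 were below 0, yet only Homer1, Jun (-0.42 ± 0.09, adjusted p = 0.0070) and Ier5 (-0.23 ± 0.07, adjusted p = 0.049) passed. Those 3 were 10.7% of the immediate-early genes, beside 3.97% of all genes. The spread of immediate-early genes between libraries was wide. Arc ran from 45.1 to 224 CPM in HttQ111/+ and from 83.8 to 288 CPM in Htt+/+ libraries (-0.42 ± 0.39, adjusted p = 0.63), and Egr3 was at 31.9 to 55.4 against 45.5 to 102 CPM (-0.53 ± 0.15, adjusted p = 0.065).

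**Figure D3:**
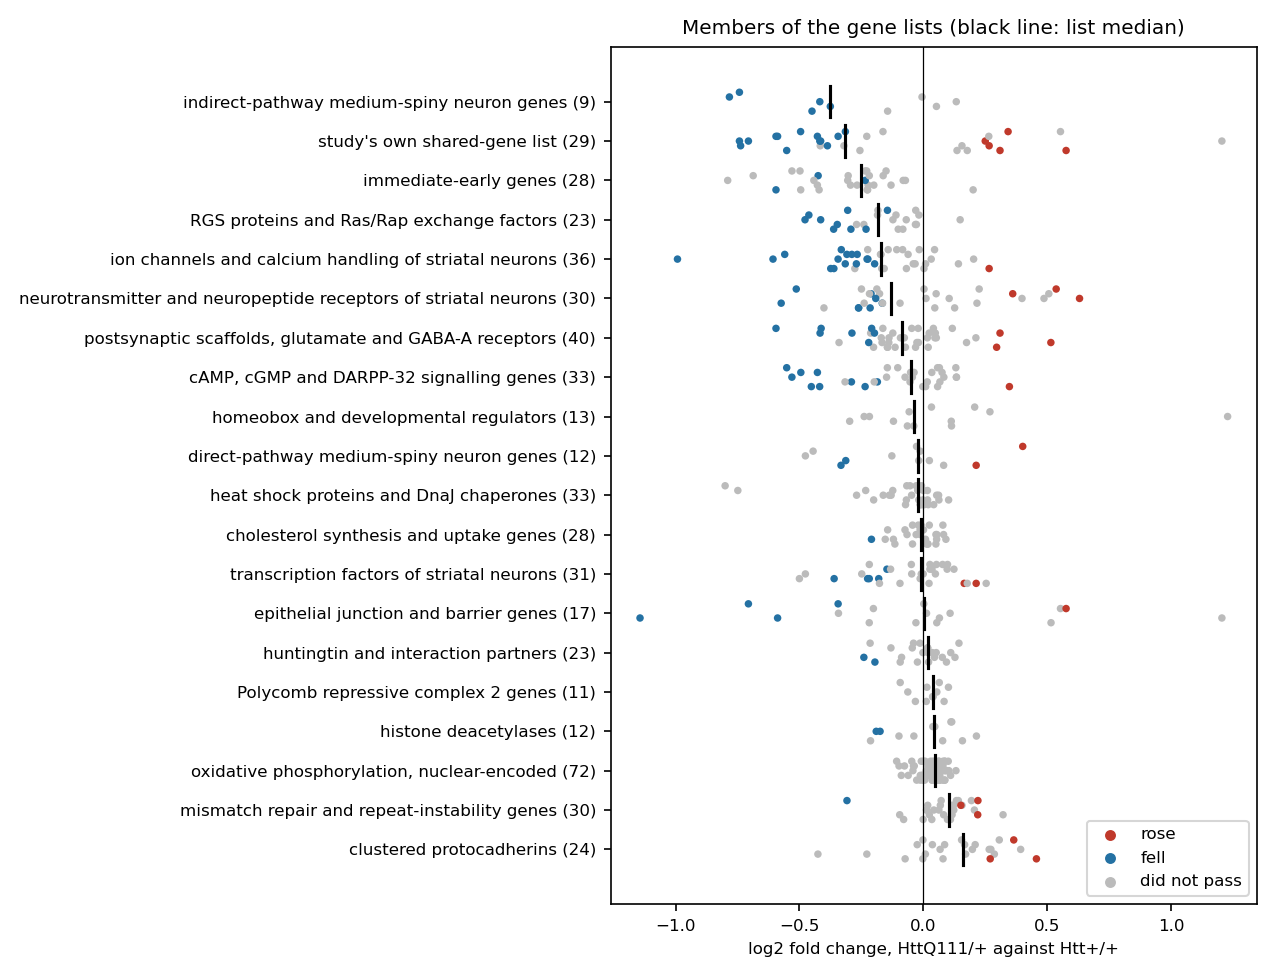
Each point is a gene of a list, placed by its log2 fold change between HttQ111/+ and Htt+/+ libraries, with the number of genes tested in parentheses and the list median as a black line. Blue points fell, red points rose and grey points did not pass; indirect-pathway genes (median -0.38) sit furthest to the left and clustered protocadherins (0.16) furthest to the right.

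Genes outside these lists included the one with the lowest adjusted p of all. Krt9, a keratin gene (chromosome 11, 100186781 to 100193246) not usually associated with neurons, was at 18.8 to 25.9 CPM (median 21.1) in HttQ111/+ and 41.6 to 59.3 CPM (median 51.5) in Htt+/+ libraries, with no overlap (-1.14 ± 0.08, adjusted p = 1.44e-07). Other epithelial genes that fell were Myo5c (-0.71 ± 0.10), Dmkn (-0.59 ± 0.09) and Sbsn (-0.34 ± 0.07), while the phosphatase Ptprh rose (0.58 ± 0.14), and 12 of the 17 tested did not pass. The share passing was 29.4%, beside 3.97% of all genes. Myo5c, Dmkn, Sbsn and Ptprh are also among 29 genes that the study listed partly on these libraries. That share is therefore not independent evidence. Plk5, a polo-like kinase relative expressed in brain, was at 9.19 to 13.8 against 17.1 to 25.6 CPM (-0.84 ± 0.09), and Clspn, a checkpoint adaptor of DNA replication, at 14.8 to 26.4 against 27.5 to 46.4 CPM (-1.01 ± 0.12), both without overlap. Neto2, an auxiliary subunit of kainate receptors, fell by 0.56 ± 0.07, the retinol carrier Rbp4 by 0.63 ± 0.08, the axonemal dynein Dnah1 by 0.67 ± 0.08 and Wwc1 (KIBRA) by 0.37 ± 0.04. Ppp4r4, a phosphatase subunit, fell by 0.31 ± 0.04.

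Among genes with an average of at least 1 on the log2 CPM scale, the largest falls were in Gpx6, a selenium-dependent glutathione peroxidase (-2.01 ± 0.41), Wnt8b, a Wnt ligand (-1.45 ± 0.32), Cpne9, a copine (-1.36 ± 0.23), Phex, an endopeptidase (-1.36 ± 0.24), and Tmprss6, a membrane serine protease (-1.20 ± 0.32), besides Krt9. These estimates were loose. Gpx6 ran from 1.04 to 15.4 CPM in HttQ111/+ and from 6.52 to 46.7 CPM in Htt+/+ libraries, so the ranges overlapped, and Wnt8b was at 0.712 to 3.22 against 1.99 to 6.86 CPM.

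The genes that rose were on the whole of lower expression than the genes that fell. Their median average level was 4.43 on the log2 CPM scale, against 6.37 for genes that fell and 4.08 for all genes tested. A830036E02Rik, whose interval overlaps the keratin gene Krt12, was at 55.5 to 74.1 CPM (median 65.0) in HttQ111/+ and 29.6 to 48.4 CPM (median 41.3) in Htt+/+ libraries (0.72 ± 0.09, adjusted p = 0.000226). Pcdh20, a non-clustered protocadherin, was at 15.2 to 25.7 CPM (median 18.4) against 8.15 to 14.6 CPM (median 10.8) (0.72 ± 0.10, adjusted p = 0.000342), and Nagk, a kinase of amino-sugar salvage, at 26.1 to 33.8 against 17.0 to 25.7 CPM (0.47 ± 0.07, adjusted p = 0.000457). The genotypes did not overlap for these 3 genes. Greb1l (0.89 ± 0.15), Rprm (0.82 ± 0.21), a p53-inducible arrest gene, and Fam196b (0.74 ± 0.15) were among the larger rises over the same level, each with overlapping ranges. Further genes that rose were the potassium-channel subunit Kcng1 (0.50 ± 0.07), the cardiac troponin gene Tnnt2 (0.70 ± 0.10), the exchange factor Vav3 (0.44 ± 0.07), the orphan receptor Gpr85 (0.24 ± 0.04), Sh3bgrl (0.21 ± 0.03), and the myelin glycoprotein Omg (0.21 ± 0.03), which lies inside Nf1. Of 24 clustered protocadherins, which are adhesion molecules read from alternative promoters, 3 rose (Pcdhb13 0.46 ± 0.09, Pcdhb12 0.37 ± 0.08 and Pcdhb22 0.27 ± 0.07), none fell and the median was 0.16. The share passing was 12.5%, beside 3.97% of all genes. Clustered protocadherins are closely related in sequence, so the division of reads among them is uncertain.

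Lists of chaperone, metabolic, chromatin, repair and huntingtin-partner genes were read beside the 3.97% of all genes that passed. In edgeR none of 33 heat shock and DnaJ chaperones passed (2 at an unadjusted p under 0.05, and 0 by DESeq2 and limma-voom), and none of 72 nuclear-encoded oxidative phosphorylation genes passed (7 at an unadjusted p under 0.05, 0 by DESeq2 and limma-voom, and 1 higher with library totals alone), their log2 fold changes lying between -0.11 and 0.13. None of 11 Polycomb repressive complex 2 genes passed or had an unadjusted p under 0.05 in edgeR with TMM, DESeq2 or limma-voom (2 at an unadjusted p under 0.05 with library totals alone), and none of the 13 tested developmental regulators, of 79 found in the table, passed (2 at an unadjusted p under 0.05, 0 by DESeq2 and limma-voom, and 1 lower with surrogate variables). Of 28 cholesterol genes, Srebf2, the master regulator of the pathway, fell (-0.21 ± 0.04) and 27 did not pass (3.57% passing, median -0.01); with surrogate variables 4 fell and the median was -0.06. Among 12 histone deacetylase entries Hdac11 (-0.19) and Hdac5 (-0.17) fell (16.7%); with library totals alone 2 entries rose and none fell, so the direction of that list depended on scaling. Of 30 mismatch repair and repeat-instability genes, 3 rose, among them Rrm2b (0.15 ± 0.03), a ribonucleotide reductase subunit, and Rpa2 (0.22 ± 0.05), a single-strand DNA-binding subunit, and Rfc5 (-0.31 ± 0.07), a clamp-loader subunit, fell (13.3% passing); the median was 0.10. Msh3 (0.07) and Fan1 (0.04), which act on CAG repeat instability, did not pass. Of 23 genes for huntingtin and its partners, Pacsin1 (-0.20 ± 0.04), an endocytic adaptor, fell besides Htt (8.70%). In males only neither of them passed. Of the 29 genes the study had listed as changed both here and in an earlier data set, 13 fell and 5 rose; that list was chosen partly on these libraries, so its count is not independent evidence.

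Promoter sequence was examined for the cAMP response element, the site bound by CREB downstream of protein kinase A, because genes of that cascade were prominent among those that fell. The palindrome TGACGTCA was searched in the 250 bases before each RefSeq transcription start (GRCm38.p6). It was found in 2.91% of the 11599 tested genes with a promoter entry, in 3.11% of 322 genes that fell and in 4.03% of 149 genes that rose, so the genes that fell held it about as often as the background. A gene was counted where any of its promoter entries held the element. A full list of the genes described above that held it is not reported here. Htt and Gpr6 held it, and their windows are shown with the element in capitals, 5′ to 3′ on the gene's strand. Its first base lay 14 bases before the start in Htt (chr5:34761490-34761739, plus strand) and 78 bases before the start in Gpr6 (chr10:41072291-41072540, minus strand). A match is a description of these letters and not of binding, and Penk, Ppp1r1b and Adora2a had no entry.
Htt: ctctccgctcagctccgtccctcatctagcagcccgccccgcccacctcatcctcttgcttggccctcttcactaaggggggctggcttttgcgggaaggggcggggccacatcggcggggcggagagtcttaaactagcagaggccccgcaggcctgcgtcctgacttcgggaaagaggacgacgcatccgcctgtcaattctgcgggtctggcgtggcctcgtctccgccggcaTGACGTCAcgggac
Gpr6: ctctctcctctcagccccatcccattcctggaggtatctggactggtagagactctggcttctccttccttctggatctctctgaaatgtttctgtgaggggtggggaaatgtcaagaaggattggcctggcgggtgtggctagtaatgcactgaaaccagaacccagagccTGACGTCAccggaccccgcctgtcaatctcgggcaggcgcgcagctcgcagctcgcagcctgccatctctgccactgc

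The HttQ111 effect was next taken within each Hdac2 genotype. In Hdac2+/+ striata (3 against 5 libraries) 598 genes passed (3.48%), 373 lower (2.17%) and 225 higher (1.31%), and in Hdac2-/- striata (5 against 3) 39 passed (0.227%), 36 lower (0.209%) and 3 higher (0.0175%). All 3 Htt+/+ Hdac2-/- libraries had animal numbers beginning V19, whereas the 5 HttQ111/+ Hdac2-/- libraries had numbers beginning V13, v18 or V19. In Hdac2-/- striata Htt genotype was therefore partly confounded with this block of animal numbers. The same holds for the interaction below, and the part of the block in either was not tested. The counts were sensitive to single libraries: leaving out HttQ111/+ Hdac2+/+ replicate 3 gave 200 and 22, and leaving out Htt+/+ Hdac2-/- replicate 4 took the second count to 8. The difference between the genotypes was tested directly as an interaction, which a single gene passed (0.00582%), with 1424 at an unadjusted p under 0.05 and 25 by DESeq2. Of the 598 genes, 530 (88.6%) had the same direction in Hdac2-/- striata, against 58.1% of all genes, 248 of them at an unadjusted p under 0.05 and 22 past the adjusted threshold; their median size was 0.39 in Hdac2+/+, where they were chosen, and 0.14 in the same direction in Hdac2-/-. Of the 39 genes chosen in Hdac2-/-, 36 had the same direction in Hdac2+/+, with medians of 0.43 and 0.37. Genes passing in both genotypes included Krt9 (-1.29 in Hdac2+/+ and -0.99 in Hdac2-/-), Penk (-0.90 and -0.58), Plk5 (-1.09 and -0.59), Adcy5 (-0.50 and -0.40), Arpp21 (-0.65 and -0.33) and Dnah1 (-0.55 and -0.79). Drd2 was at -0.53 in Hdac2+/+ (adjusted p = 0.000366) and -0.22 in Hdac2-/- (adjusted p = 0.23), and Rgs14 at -0.70 (adjusted p = 9.49e-06) and -0.22 (adjusted p = 0.22). The interactions of Penk (0.32 ± 0.08, adjusted p = 0.40), Drd2 (0.31 ± 0.10, adjusted p = 0.47) and Rgs14 (0.49 ± 0.09, adjusted p = 0.25) did not pass, so a difference between Hdac2 genotypes was not established for these genes.

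**Figure D4:**
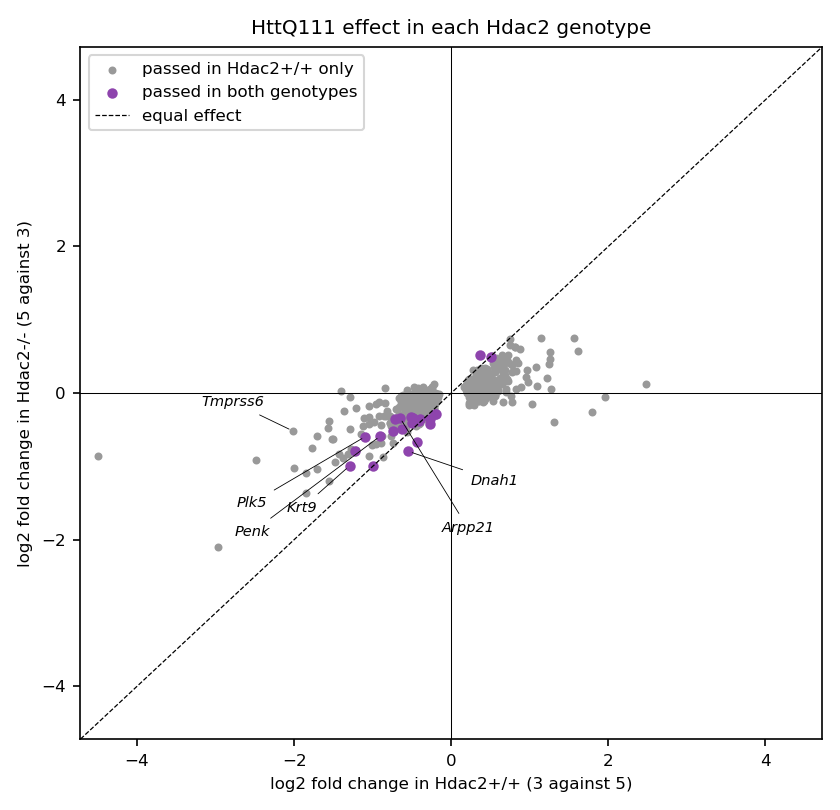
Log2 fold change between HttQ111/+ and Htt+/+ libraries in Hdac2+/+ (horizontal axis) and in Hdac2-/- striata (vertical axis) for the 598 genes that passed in Hdac2+/+; purple points (22) passed in both and the dashed line marks equal effects. Most points have the same sign on both axes (530 of 598) and lie between the dashed line and 0 on the vertical axis, where choosing genes by the horizontal value places them in part.

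The gene that passed the interaction was Pnmt (chromosome 11, 98386450 to 98388181), the enzyme that makes adrenaline. It was at 0.67, 0.68, 0.91, 0.78 and 0.65 CPM in Htt+/+ Hdac2+/+ libraries and at 0.85, 1.14 and 0.76 CPM in HttQ111/+ Hdac2+/+ libraries. In Hdac2-/- libraries it was at 6.54, 6.71 and 8.32 CPM in Htt+/+ and at 2.79, 3.26, 3.43, 2.62 and 3.38 CPM in HttQ111/+. It was thus low in all 8 Hdac2+/+ libraries, higher in all 8 Hdac2-/- libraries, and within these lower in every HttQ111/+ library (-1.22 in Hdac2-/-, adjusted p = 0.000513; interaction -1.52 ± 0.23, adjusted p = 0.047). Pnmt lies in the same region as Ppp1r1b (98348404 to 98357286) but does not overlap it. The Cre transgene is driven by a genomic Ppp1r1b fragment, which the study describes as regulatory sequence with some introns and exons of Ppp1r1b. Whether the Pnmt reads came from the endogenous gene was not tested. The interaction call was fragile: it was lost in 13 of the 16 fits that left out 1 library, although the value stayed between -1.64 and -1.34 over all 16, and also with sex in the model, in males only and without the libraries of 3 June.

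The other animals of the study gave a comparison with shorter repeats. The short-repeat series held 10 HttQ111/+ libraries with 110 to 118 CAG repeats and 9 Htt+/+ libraries, and repeat length and animal series cannot be told apart. It also held a larger share of females, and most of its Htt+/+ libraries were Hdac2-/-. Mitochondrial transcripts took 9.18 to 12.1% of counts in the short-repeat and 6.86 to 9.57% in the long-repeat series. Counts in males only are given further below, and the part of the mitochondrial share was not tested. In a fit of all 35 libraries, 964 genes passed in the long-repeat series (5.61%), 584 lower (3.4%) and 380 higher (2.21%). In the short-repeat series edgeR passed 0, with 908 at an unadjusted p under 0.05, while DESeq2 passed 14 and a fit with surrogate variables 22. The 682 genes were called with the long-repeat libraries, so their values there are a description: 611 of them (89.6%, against 60.8% of all genes) had the same direction in the short-repeat series, 150 with an unadjusted p under 0.05. Their median size was 0.29 in the fit of the long-repeat libraries, where they were chosen. Taken in that same direction, with opposite changes counted as negative, their median was 0.08 in the short-repeat series (fit of 35 libraries). The difference between the series passed for 18 genes (0.105%), 13 with a lower (0.0756%) and 5 with a higher (0.0291%) fold change in the long-repeat series. Penk changed by -0.74 ± 0.06 in the long-repeat and -0.28 ± 0.05 in the short-repeat series (difference -0.46 ± 0.08, adjusted p = 0.0044), Krt9 by -1.14 ± 0.09 and -0.36 ± 0.09 (adjusted p = 0.0044), Plk5 by -0.84 ± 0.07 and -0.26 ± 0.07 (adjusted p = 0.0044), Clspn by -1.01 ± 0.10 and -0.21 ± 0.09 (adjusted p = 0.0044) and Arpp19 by -0.53 ± 0.05 and -0.13 ± 0.05 (adjusted p = 0.0049). Pcdh20 (0.72 and 0.15), A830036E02Rik (0.72 and 0.09), Nagk (0.47 and 0.09), Vav3 (0.45 and -0.03) and Armcx6 (0.52 and -0.04) had the higher fold change in the long-repeat series, but each of these 5 differences lost its call in 17 to 25 of the 35 fits that left out 1 library. Prkcb, a protein kinase C isoform, was at -0.39 and -0.05, and Dnah1 at -0.67 and -0.09. Adcy5 (-0.45 and -0.17, adjusted p of the difference 0.18), Drd2 (-0.37 and -0.19, adjusted p = 0.53) and Ppp1r1b (-0.43 and -0.25, adjusted p = 0.62) did not pass the test of the difference. Of the 18 differences, those of Penk, Krt9, Plk5, Clspn, Arpp19, Prkcb and Dnah1 passed in all 35 such fits, and the other 11 lost their call in 9 to 25 of them.

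**Figure D5:**
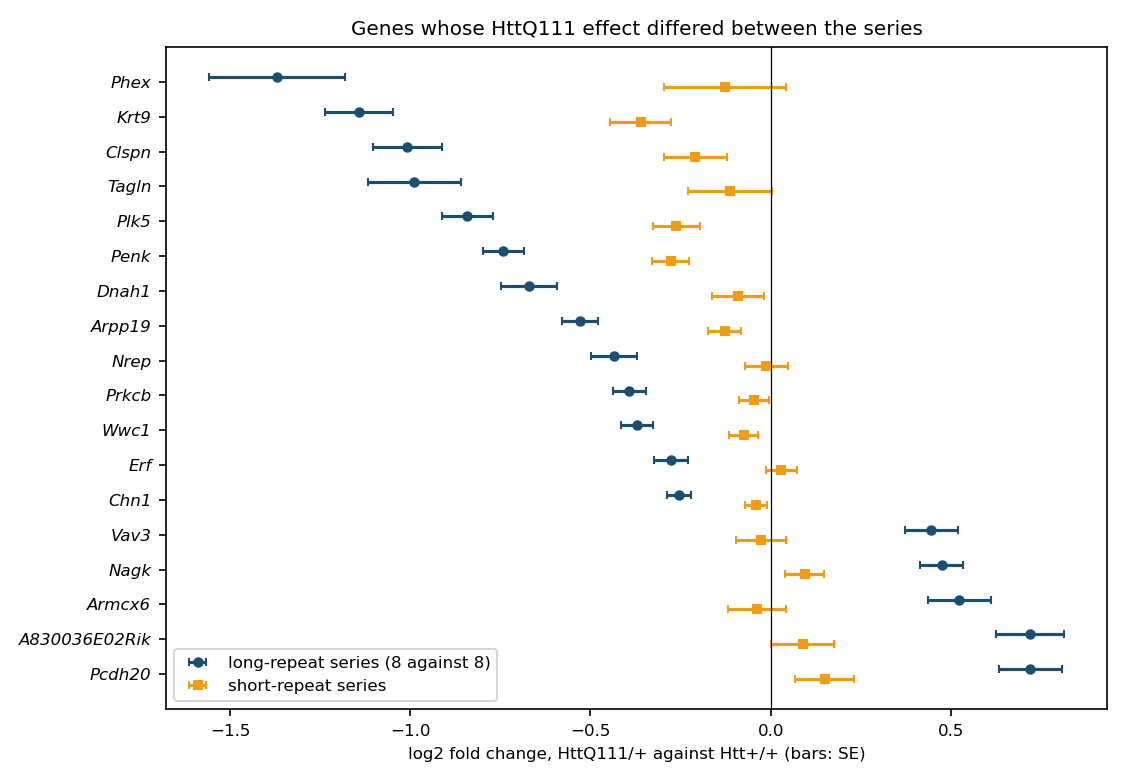
Log2 fold change between HttQ111/+ and Htt+/+ libraries in the long-repeat series (circles, 8 against 8 libraries) and the short-repeat series (squares, 10 against 9), with the SE as bars, for the 18 genes that passed the test of the difference. The squares lie nearer to 0 than the circles for all 18, from Phex (-1.37 and -0.13) to Pcdh20 (0.72 and 0.15).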

How the data were processed

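Striatal RNA was sequenced from stranded, poly(A)-selected libraries with ERCC spike-ins; 35 libraries, 1 per mouse, were used here, and the authors had set aside 1 further Htt+/+ Hdac2+/+ library for signs of DNA contamination, which is not analysed here. The deposited values are whole-number gene counts, which the authors made by aligning reads to GRCm38 (Ensembl annotation) with GSNAP (2015-06-23) and counting unique alignments over gene intervals with bedtools; whole intervals include introns, use of strand in that step was not given in the sources used here, and reads of overlapping genes can be counted for both. Of 39109 entries, 92 spike-ins, 6152 genes of 250 nt or shorter and 2 mitochondrial rRNA genes were left out, and 17187 genes that reached 6 counts across all 8 libraries of at least 1 Htt genotype were tested in the 16 long-repeat libraries.

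Groups came from the sample labels. The test was edgeR's quasi-likelihood F test (edgeR 4.0.16, R 4.3.3) on TMM-scaled counts with Htt and Hdac2 genotype as terms, and the interaction and the 35-library contrasts were fitted the same way, with Benjamini-Hochberg adjustment over all genes tested and a threshold of 0.05. SE is the log2 fold change divided by the square root of F. The study's own model used surrogate variables over 35 libraries; that fit, DESeq2 (1.42.0), limma-voom (3.58.1) and other scalings, filters, covariates and left-out libraries were alternatives. Members, lists and tests were chosen with earlier results of these data known. The genes named were Htt, Hdac2 and Hdac1, the 12 genes of lowest adjusted p in each direction and the 6 of largest change with an average of at least 1 on the log2 CPM scale, up to 6 genes of lowest p in each list, and those passing the interaction and the difference between series; further list members are named after their values were seen, and some genes are not reported here. The fitting steps were tested on simulated counts. Labels give 1 mouse per library. Counting error is small at this depth except for genes near 1 CPM.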

Additional observations from a re-analysis of the deposited data

Results flagged for a closer look

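Among 91 of the named genes, 14 of 182 group values (2 groups of 5 libraries each) had a library set apart from the other 4 of its group by Dixon's criterion at the 95% level, which chance alone meets in about 1 of 20 groups. HttQ111/+ Hdac2-/- replicate 8, the carrier with 144 CAG repeats, was the library set apart for 5 genes. It was lowest for Plk5 (9.19 CPM, others 12.6 to 13.8), Ppp1r1b (1316 CPM, others 1529 to 1597) and Adora2a (261 CPM, others 348 to 380), and highest for Pcdh20 (25.7 CPM, others 16.8 to 18.6) and Fam196b (9.99 CPM, others 5.91 to 6.73). In each of these genes it lay further from the controls than the rest of its group did. Leaving it out raised the number of genes that passed to 839. HttQ111/+ Hdac2-/- replicate 5 was lowest for Lrrtm4 (49.5 CPM, others 59.0 to 62.5) and Npy1r (16.8 CPM, others 20.2 to 21.4), replicate 6 of that group was highest for Drd2 (204 CPM, others 163 to 169) and Wnt8b (3.22 CPM, others 1.33 to 1.63), replicate 4 was lowest for Rap1gap (279 CPM, others 343 to 369) and highest for Pcdhb12 (12.7 CPM, others 10.7 to 11.2), and replicate 7 was highest for Hrh3 (106.5 CPM, others 81.2 to 84.9). In Htt+/+ Hdac2+/+ libraries, replicate 4 was lowest for Bcl11b (399 CPM, others 461 to 483) and replicate 8 was highest for Dmkn (28.5 CPM, others 22.2 to 23.6).

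The HttQ111 effect differed between Hdac2 genotypes by the interaction test for Pnmt (-1.52). It differed between the long-repeat and the short-repeat series for 18 genes, where the long-repeat minus short-repeat difference was -0.58 for Plk5, -0.30 for Wwc1, 0.63 for A830036E02Rik, -0.78 for Krt9, -0.58 for Dnah1, 0.57 for Pcdh20, -0.42 for Nrep, -0.21 for Chn1, 0.47 for Vav3, -0.46 for Penk, -0.80 for Clspn, 0.38 for Nagk, -0.31 for Erf, -0.35 for Prkcb, -0.88 for Tagln, -0.40 for Arpp19, 0.56 for Armcx6 and -1.24 for Phex.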

How the results depend on the processing

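The count of genes passing in the long-repeat comparison (682) rose to 1400 with surrogate variables and 1146 with DESeq2 and fell to 256 in males only; other settings gave 533 to 964, and none of the 682 changed direction in any setting. A term for the block of animal numbers gave 690, of which 549 were shared with the 682. Leaving out 1 library gave 362 to 839, with 362, 452 and 420 without HttQ111/+ Hdac2+/+ replicates 3, 4 and 5 and 443 without Htt+/+ Hdac2-/- replicate 4. The Hdac2+/+ count (598) was 93 in males and 1046 with DESeq2 (200 to 782 leaving out 1 library; 328 and 221 without HttQ111/+ replicates 4 and 5, 378 without Htt+/+ replicate 7). The Hdac2-/- count (39) was 23 with sex in the model, 3 in males, 24 without 3 June and 191 with DESeq2 (8 to 52 leaving out 1 library). The interaction count (1) was 0 with sex, in males and without 3 June and 25 with DESeq2 (0 to 4). The long minus short count (18) was 166 with surrogate variables, 3 in males, 53 with DESeq2 and 8 without the count filter (7 to 39), and 21 with a term for the A and Z series, chosen after seeing the data. The short-repeat count (0) was 22 with surrogate variables, 1 in males and 14 with DESeq2 (0 to 7).

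Replicate numbers did not pair the samples (mean correlation 0.042 over 13 same-number pairs; 4 of 16 libraries correlated best with their own number). With the replicate block the counts were 756, 246 in Hdac2+/+, 241 in Hdac2-/-, 11 for the interaction and 0 for long minus short. Of 86 named genes that passed, 55 passed in every setting other than leaving out a library and 69 in every such omission; none reversed. Males only lost 24 of the calls and the model without an Hdac2 term 11. Depth limited the genes near 1 CPM.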
